A study of Mus musculus with 6 samples.

Results

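Genes of glycolysis and pyruvate handling were examined in bulk mRNA of mouse cerebella at postnatal day 1 (P1). The 35 listed symbols run from glucose entry to the gate of the mitochondrion, and each row of the count table carrying one of them was taken. They matched 36 of the 54532 genes in the table, because the symbol *Aldoa* stands on 2 Ensembl genes. All 36 passed edgeR's filter on low counts, which kept 17505 genes.

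The study asked how Tox3, a high mobility group box protein of the nucleus, acts in granule neuron progenitors (GNPs), the dividing cells of the external granule layer that give rise to cerebellar granule neurons. Both groups carried the floxed *Tox3* allele on both chromosomes. The 3 libraries labelled control came from *Tox3* f/f littermates without Cre and the 3 libraries labelled mutant from Nestin-cre;*Tox3* f/f animals. The Nestin promoter drives Cre in neural progenitors throughout the nervous system, not in GNPs alone, and the transgene was present only in the mutants, so its own effect and that of the deletion cannot be told apart. Each library is one labelled sample of a group, and the sources used here do not say how many animals went into a library. The total count per library lay between 15391854 and 17178478. Counts of *Tox3* did not check the labels: its level, in CPM (counts scaled to a common library total), was 63.0 to 64.4 under the control label and 55.3 to 63.2 under the mutant label, and the groups overlapped. *Atoh1*, the transcription factor that keeps GNPs in their progenitor state, fell by 98.8% in the libraries labelled mutant (edgeR adjusted p = 8.85e-08). Genes of the Y chromosome were at a high summed level in 1 of 3 libraries labelled control and in 2 of 3 labelled mutant, so both sexes were present. Libraries are called Ctrl and cKO below after their labels, and directions are those of cKO against Ctrl.

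Glycolysis splits glucose into pyruvate in the cytosol. Hexokinase, phosphofructokinase and pyruvate kinase are its irreversible steps, and several steps are run by paralogous enzymes that differ between tissues and cell states. Pyruvate is then reduced to lactate by lactate dehydrogenase and exported, or is carried into the mitochondrion and burned through pyruvate dehydrogenase, which the pyruvate dehydrogenase kinases (PDKs) switch off. Postnatal GNPs are known for aerobic glycolysis driven by Sonic hedgehog signalling, with *Hk2* as a known component of that programme.

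Promoter windows are shown for 3 genes whose values the results turn on: *Aldoc* and *Pdk4*, the genes past the stricter threshold, and *Hk2*, the hexokinase linked to GNPs. Each is the 250 bases before the transcription start in RefSeq on GRCm38.p6, written 5′ to 3′ on the strand of the gene. *Aldoc* is at chr11:78322823-78323072 on the plus strand, *Pdk4* at chr6:5496279-5496528 on the minus strand and *Hk2* at chr6:82774455-82774704 on the minus strand. The RefSeq start of *Hk2* lies at the gene edge in the deposited table, and those of *Pdk4* and *Aldoc* lie 31 and 105 bases from it. Capitals mark the letters ACGTG or GCGTG on either strand, the core of the hypoxia response element that HIF factors bind.
Aldoc: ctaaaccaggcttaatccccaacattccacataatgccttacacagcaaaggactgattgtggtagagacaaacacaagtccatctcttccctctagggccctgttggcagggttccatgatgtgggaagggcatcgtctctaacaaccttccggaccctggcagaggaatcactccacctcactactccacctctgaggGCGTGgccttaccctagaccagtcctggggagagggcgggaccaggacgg
Pdk4: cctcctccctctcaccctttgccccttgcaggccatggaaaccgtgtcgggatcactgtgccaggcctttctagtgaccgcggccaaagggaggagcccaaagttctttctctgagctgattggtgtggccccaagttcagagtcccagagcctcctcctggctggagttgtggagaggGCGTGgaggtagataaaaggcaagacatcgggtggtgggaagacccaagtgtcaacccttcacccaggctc
Hk2: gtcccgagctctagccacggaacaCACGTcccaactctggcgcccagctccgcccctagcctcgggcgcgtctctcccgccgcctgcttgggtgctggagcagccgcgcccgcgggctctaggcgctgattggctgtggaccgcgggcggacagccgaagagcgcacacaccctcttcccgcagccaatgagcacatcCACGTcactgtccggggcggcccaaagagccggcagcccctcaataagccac
One match was found in the *Aldoc* window, 1 in the *Pdk4* window and 2 in the *Hk2* window, the last both being ACGTG on the opposite strand. Of the 35 symbols, 33 had a RefSeq promoter window, and *Slc2a3* and *Slc16a7* had none. ACGTG was found for 14 of the 33 genes (42.4%) and for 18.5% of all 27025 genes with windows of this length. GCGTG was found for 23 (69.7%), against 30.9% of all genes. The E-box CACGTG, which contains ACGTG, was found for 6 (18.2%), against 6.86%. All of these motifs contain CG, and the genes of the background were not matched to the set for base composition. The higher shares in the set were not tested, and nothing is read from them. Letters in a window are a description and show no bound factor.

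The question of the comparison is whether the enzymes of glucose breakdown shifted in these cerebella. Of the 36 genes 14 rose by mostly small amounts and 1 fell, and paralogs of one step often had log2 fold changes of different size or sign. The median log2 fold change of the 36 genes was 0.15, with 26 above 0 and 10 below, whereas the median of all 17505 tested genes was −0.01. At an adjusted p under 0.05, 14 of the 36 genes (38.9%) rose, against 12.2% of all tested genes, and 1 fell (2.78%), against 12.9% of all tested genes. With the thresholds of the study's methods, that is adjusted p below 0.01 with log2 fold change beyond 0.5, *Aldoc* and *Pdk4* rose (5.56%, against 3.03% of all tested genes) and none fell, against 3.63% of all tested genes. That count of 0 from edgeR was also 0 with DESeq2, and at an unadjusted p under 0.05 beyond the same fold. The 3 cKO libraries lay wholly above the Ctrl ones for 17 genes (47.2%), against 20.4% of all tested genes, and wholly below them for 5 (13.9%), against 20.1%. All 15 genes past an adjusted p of 0.05 were among these 22, and the 5 below were *Tigar*, *Hk2*, *Eno1*, *Pkm* and *Ldha*, of which *Tigar* passed the test. In bulk tissue, fewer cells of a type and less RNA per cell cannot be told apart.

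**Figure D1:**
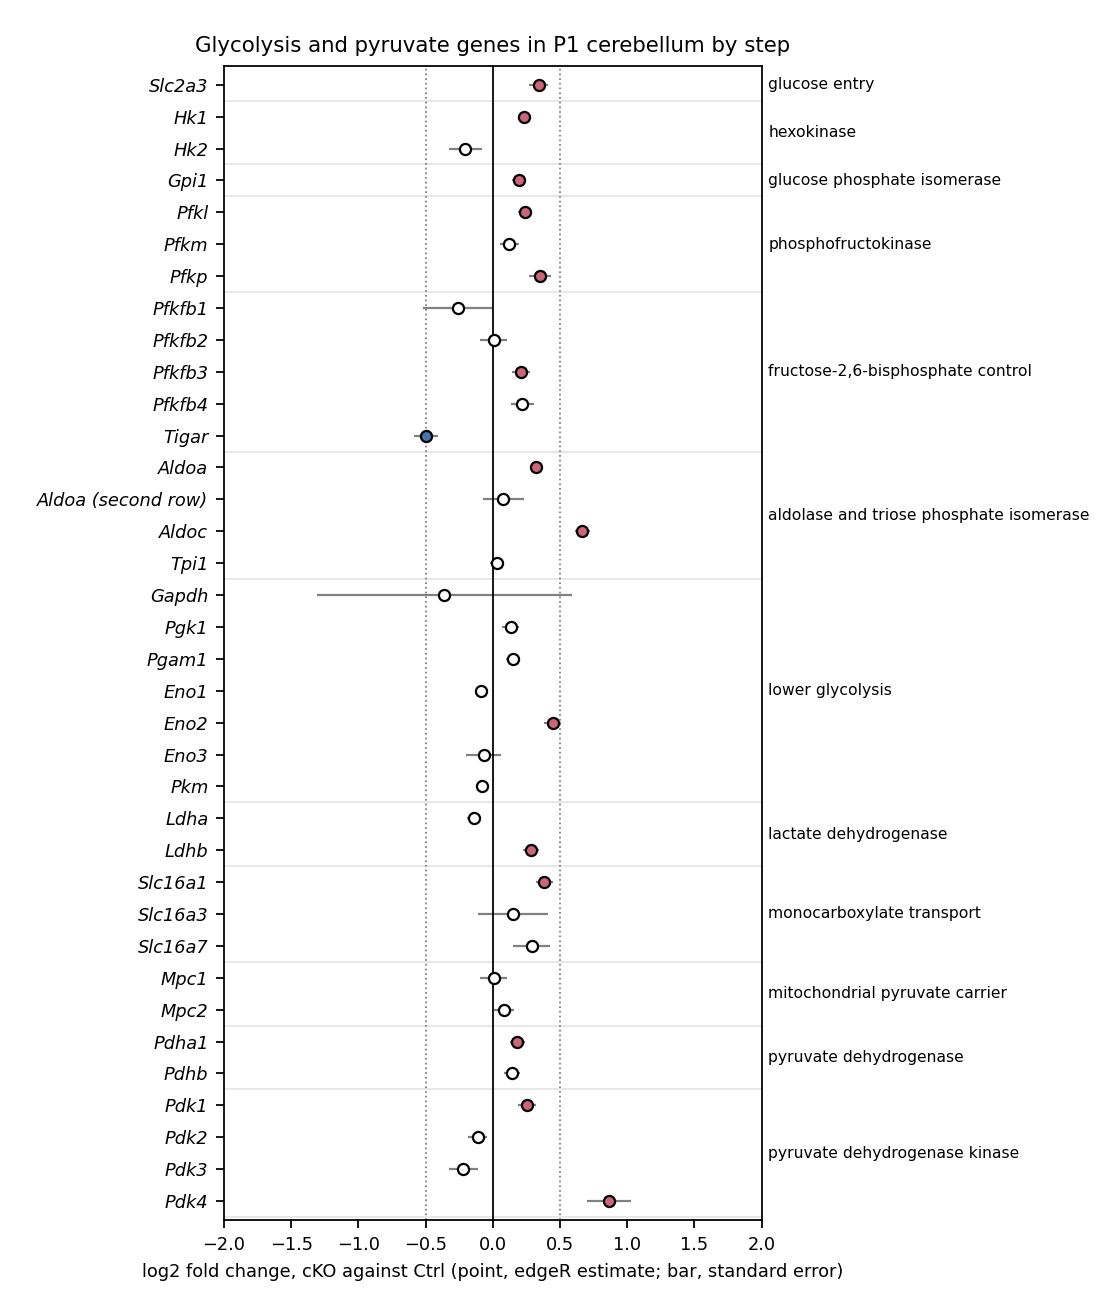
Log2 fold change of each gene in libraries labelled cKO against Ctrl, grouped by step; points are edgeR estimates, bars standard errors, and dotted lines mark 0.5 in either direction. Filled red points (14) rose and the blue point (*Tigar*) fell at an adjusted p under 0.05, open points did not pass, and the bar of *Gapdh* is the longest.

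Markers of several cell types moved in the same libraries. All 10 GNP and proliferation markers fell at an adjusted p under 0.05, and their summed level was 1850 to 1972 CPM in the Ctrl libraries and 869 to 943 CPM in cKO. Young granule neuron markers fell in 5 of 5 tested, from a summed 2657 to 2774 CPM to 1833 to 1954 CPM. Purkinje cell markers rose in 6 of 6, from 1333 to 1386 CPM to 1870 to 2215 CPM. Astroglia markers rose in 6 of 7, from 3910 to 4016 CPM to 4984 to 5246 CPM. Of 6 oligodendrocyte lineage markers 5 rose and 1 fell. *Aldoc* is itself known as a gene of astroglia and of a subset of Purkinje cells, and *Eno2* as the enolase of neurons. The part of these marker shifts in the changes of the glycolytic genes was not tested.

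Glucose enters neurons through the transporter GLUT3, encoded by *Slc2a3*. The level of *Slc2a3* was 65.8, 56.6 and 63.3 CPM in the Ctrl libraries and 76.1, 77.0 and 82.2 CPM in cKO. The groups did not overlap, and *Slc2a3* rose 1.27-fold (log2 fold change 0.34, standard error 0.07, edgeR adjusted p = 5.61e-03). An overlapping gene on the same strand, Gm4482, held 121 counts in all beside 6685 for *Slc2a3*. The other main brain glucose transporter, *Slc2a1*, which is not among the 35 symbols, rose alongside it, from 39.9 ± 2.50 to 50.9 ± 4.34 CPM (SD, n = 3, edgeR adjusted p = 0.0130).

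Hexokinase, which traps glucose as its phosphate, showed opposite values in its paralogs. *Hk1* (ENSMUSG00000037012, chromosome 10 from 62268855 to 62379908, minus strand, GRCm38), the constitutive brain hexokinase, was counted at 172, 164 and 169 CPM in the Ctrl libraries and at 207, 191 and 195 CPM in cKO. Every cKO value was above every Ctrl value, and *Hk1* rose by a log2 fold change of 0.23 (standard error 0.05, edgeR adjusted p = 6.30e-03). *Hk2* (ENSMUSG00000000628, chromosome 6 from 82725025 to 82774454, minus strand), whose promoter is shown above, was counted at 9.05, 9.51 and 10.5 CPM against 8.71, 8.67 and 7.79 CPM. These values did not overlap either, with cKO lower, but the log2 fold change of −0.21 did not pass the test (95% interval −0.45 to 0.03, edgeR adjusted p = 0.255), and the 139 to 163 counts per Ctrl library limit its precision. Within each library the ratio of *Hk2* to *Hk1* does not depend on scaling. Its log2 value was −4.25, −4.11 and −4.01 in the Ctrl libraries and −4.57, −4.46 and −4.65 in cKO, so that the mean cKO ratio was 0.738 times that of Ctrl. Per length, *Hk2* held 7.60 ± 0.578% of the *Hk1* and *Hk2* transcripts in the Ctrl libraries and 5.72 ± 0.349% in cKO (SD, n = 3).

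*Gpi1*, which turns glucose-6-phosphate into fructose-6-phosphate, rose from 297.5 ± 9.89 to 339.8 ± 9.87 CPM (SD, n = 3, edgeR adjusted p = 0.0141), a call lost without Ctrl2, cKO1 or cKO3, at 0.0563, 0.0689 and 0.0536. Phosphofructokinase, the committed step, is built from 3 subunits, and all 3 had higher means in the cKO libraries. The platelet-type subunit *Pfkp*, the most abundant of them per length, was counted at 753, 649 and 717 CPM against 1020, 849 and 838 CPM. *Pfkp* rose 1.28-fold (log2 fold change 0.35, standard error 0.08, edgeR adjusted p = 0.0110), with cKO1 the highest. The call was lost in 1 of 17 other fits, limma on log2(FPKM + 1) without a filter (limma adjusted p = 0.0826). The liver-type *Pfkl* was counted at 85.5, 81.8 and 85.5 CPM against 103.6, 99.1 and 96.1 CPM and rose by a log2 fold change of 0.24 (edgeR adjusted p = 8.00e-03). The muscle-type *Pfkm* overlapped between the groups, at a mean of 130.7 against 142 CPM (edgeR adjusted p = 0.243). Opposite-strand genes overlap *Pfkp* and *Pfkm*, *Pitrm1* with 6032 counts in all and *Senp1* with 5085, beside 76870 and 12997 for the subunits themselves.

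Fructose-2,6-bisphosphate activates phosphofructokinase, and 5 genes set its level. *Pfkfb3*, a bifunctional enzyme that mainly makes it, was counted at 64.3, 61.7 and 56.0 CPM against 68.5, 72.7 and 69.1 CPM and rose by a log2 fold change of 0.21 (edgeR adjusted p = 0.0441), a call that was lost in 10 of 17 other fits, DESeq2 among them (adjusted p = 0.0561). It was lost without Ctrl2, Ctrl3 or any 1 of the cKO libraries, at an edgeR adjusted p of 0.0836 to 0.147. *Tigar* (ENSMUSG00000038028, chromosome 6 from 127085116 to 127109557, minus strand), the phosphatase that breaks fructose-2,6-bisphosphate down and so slows glycolysis, was the gene that fell. Its values were 20.5, 20.5 and 20.6 CPM in the Ctrl libraries and 15.0, 13.2 and 15.4 CPM in cKO. The Ctrl values almost coincided and every cKO value lay below them. The log2 fold change of *Tigar* was −0.50 (standard error 0.09, edgeR adjusted p = 3.47e-03). Its size before rounding was just short of the stricter fold limit, which *Tigar* passed with the Y-chromosome level as a covariate and without cKO3, at log2 fold changes of −0.52 and −0.54. *Pfkfb4* had higher values in every cKO library without passing the test (edgeR adjusted p = 0.0861), and *Pfkfb1* and *Pfkfb2* overlapped between the groups. On the opposite strand *Apex2* overlaps *Pfkfb1*, with 834 counts in all beside 231, and *Yod1* overlaps *Pfkfb2*, with 2730 beside 3799.

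Aldolase splits fructose-1,6-bisphosphate and both of its main genes rose. *Aldoa* (ENSMUSG00000030695, chromosome 7 from 126795234 to 126800751, minus strand), the widespread form, was counted at 328, 321 and 323 CPM in the Ctrl libraries and at 406, 408 and 404 CPM in cKO. The spread within each group was small beside the gap between them, and the log2 fold change was 0.32 (standard error 0.04, edgeR adjusted p = 4.91e-04). The second gene under the same symbol had 504 counts in all and overlapped between the groups. An opposite-strand gene, *Fam57b*, overlaps both genes and held 8709 counts in all, beside 34777 for the first. *Aldoc* (ENSMUSG00000017390, chromosome 11 from 78322968 to 78327781, plus strand) was counted at 126, 119 and 125 CPM against 186, 189.9 and 209.6 CPM. *Aldoc* rose 1.59-fold (log2 fold change 0.67, standard error 0.06, edgeR adjusted p = 4.84e-05) and passed the stricter threshold in each of the 17 other fits. Per length, its share of *Aldoa* and *Aldoc* transcripts was 25.3 ± 0.463% in the Ctrl libraries and 30.0 ± 1.44% in cKO (SD, n = 3). *Tpi1*, which interconverts the triose phosphates made by aldolase, overlapped between the groups at 178 to 199 CPM against 188 to 195 CPM.

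**Figure D2:**
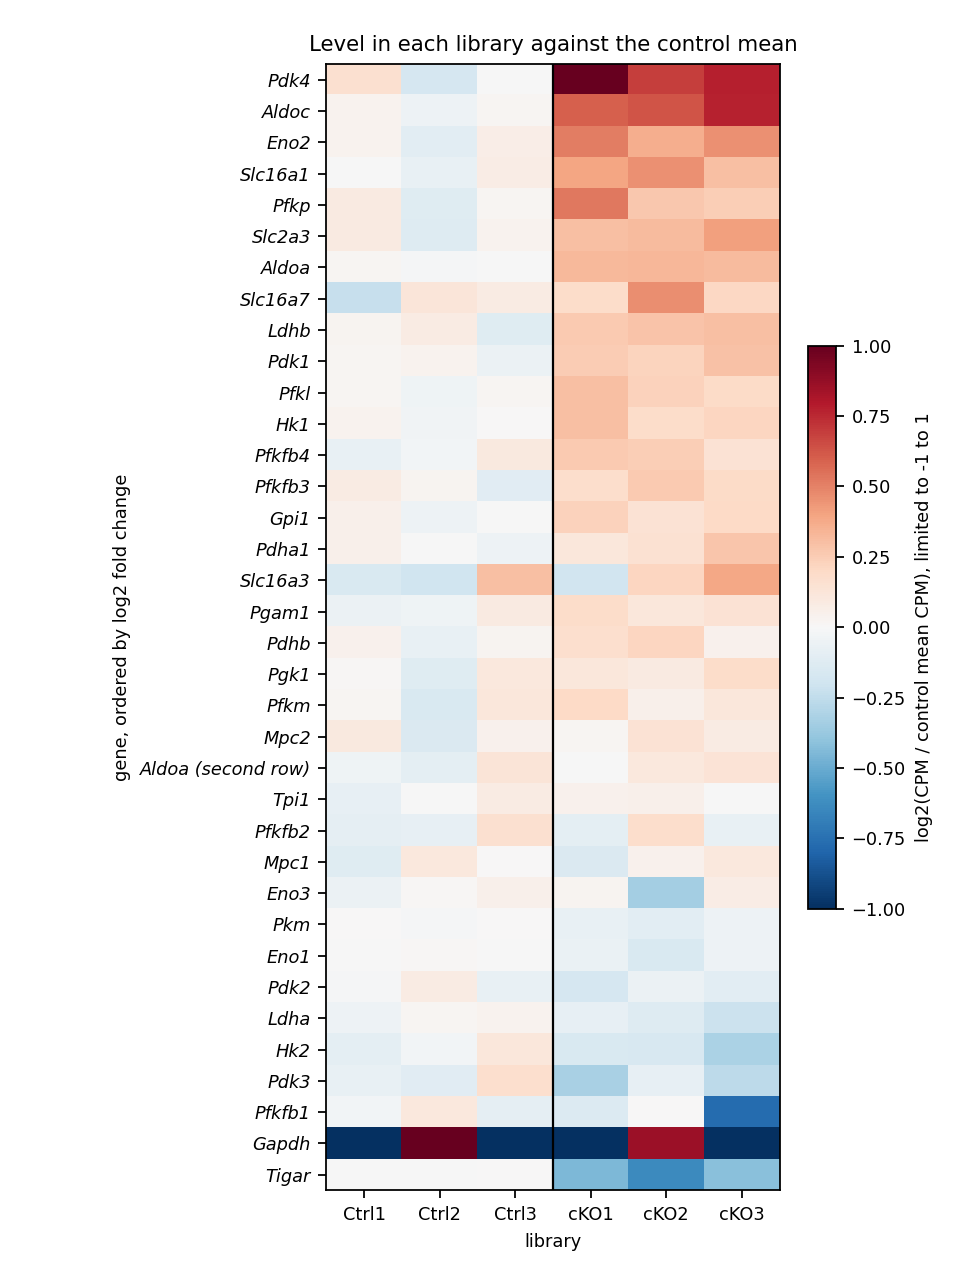
Level of each gene in each library as log2 of its CPM over the control mean, with genes ordered by log2 fold change and colours limited to −1 and 1. The upper rows, from *Pdk4* down to *Pdha1*, are red in all 3 cKO columns, while *Gapdh* is red only in Ctrl2 and cKO2.

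In lower glycolysis, which turns triose phosphates into pyruvate, 1 of 7 genes changed at an adjusted p under 0.05. Over all tested genes 12.2% rose and 12.9% fell, so nothing is read from this count. *Eno2* (ENSMUSG00000004267, chromosome 6 from 124760053 to 124769673, minus strand), the neuronal enolase, was counted at 80.5, 73.0 and 82.4 CPM against 112.3, 101.1 and 107.7 CPM. It rose 1.36-fold (log2 fold change 0.44, standard error 0.06, edgeR adjusted p = 9.13e-04). The widespread *Eno1* was slightly lower in every cKO library, at 483, 486 and 482 CPM against 461, 435 and 468 CPM, and did not pass the test (log2 fold change −0.09, 95% interval −0.18 to 0.00, edgeR adjusted p = 0.188). Per length, *Eno2* made up 14.8 ± 0.852% of the 3 enolases in the Ctrl libraries and 20.0 ± 0.460% in cKO (SD, n = 3). *Eno1b*, a near copy of *Eno1*, had 1110 counts beside 44553, so that reads could have been shared between them. *Pkm*, the pyruvate kinase of brain and growing tissue, was lower in every cKO library, at 643, 639 and 646 CPM against 609, 597 and 619.8 CPM, without passing the test (edgeR adjusted p = 0.207). The table does not separate its splice forms M1 and M2, and a gene on the same strand, AC160637.1, held 3706 counts beside 59446. *Pgk1*, *Pgam1* and the muscle enolase *Eno3* did not pass either, with log2 fold changes of 0.13, 0.15 and −0.07. *Pgam1* passed without Ctrl3 or cKO2, at an edgeR adjusted p of 0.0232 and 0.0465. It also passed with the Y-chromosome level as a covariate or the replicate number as a block.

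*Gapdh*, the enzyme between *Tpi1* and *Pgk1* and a common reference gene, followed neither its neighbours nor the groups. It had 144, 1813 and 188 counts in the Ctrl libraries and 239, 1292 and 180 in cKO, that is 9.37, 118 and 12.1 CPM against 13.8, 84.2 and 11.2 CPM. The libraries numbered 2 in each group were at least 6.11-fold above all others. For *Tpi1*, *Pgk1*, *Pgam1* and *Eno1* the libraries numbered 2 did not stand apart from the others. The log2 fold change of *Gapdh* was −0.36 with a standard error of 0.95, and it lay between −1.89 and 1.75 with single libraries left out, the highest without Ctrl2 and the lowest without cKO2. Per length, the mean of 11.2 FPKM in the Ctrl libraries was far below that of *Pgk1* at 76.3 FPKM and *Pgam1* at 99.3 FPKM. An opposite-strand gene, *Iffo1*, overlaps *Gapdh* and held 4573 counts in all beside 3856 for *Gapdh*. The copies of *Gapdh* found by name, Gapdh-ps14 and Gapdh-ps15, held 3 counts in all. Copies under other names were not looked for. How reads with several matching places were handled is not given in the sources used here, and its part in these counts was not tested.

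**Figure D3:**
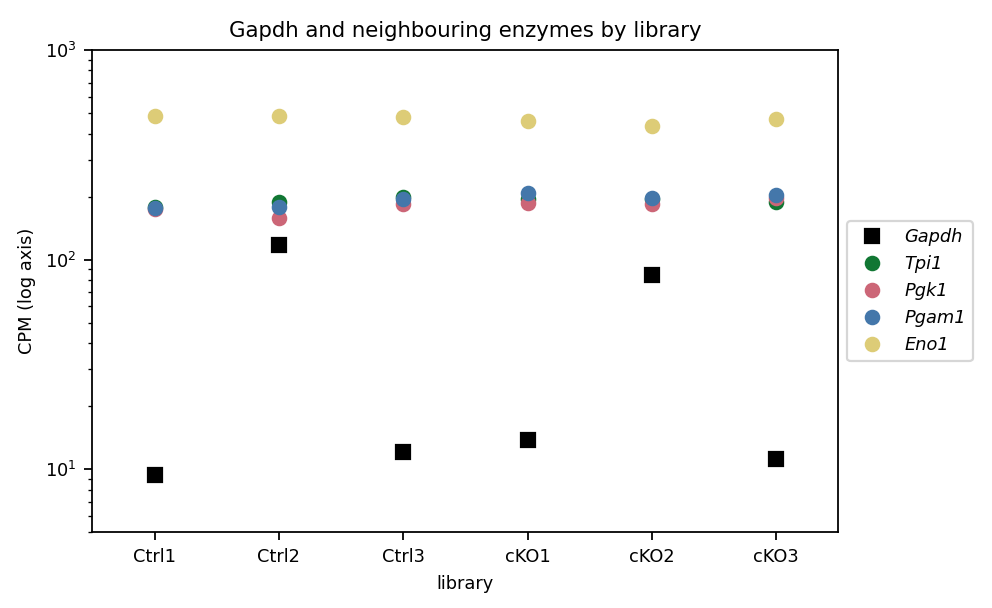
CPM of *Gapdh* (black squares) and of *Tpi1*, *Pgk1*, *Pgam1* and *Eno1* (circles) in each library, on a log axis. *Gapdh* is at 118 CPM in Ctrl2 and 84.2 CPM in cKO2 and between 9.37 and 13.8 CPM elsewhere, while the other enzymes stay nearly level.

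Lactate dehydrogenase subunits, like the hexokinases, had log2 fold changes of opposite sign. *Ldhb* (ENSMUSG00000030246, chromosome 6 from 142490249 to 142507957, minus strand), the subunit that favours lactate use, was counted at 227, 236 and 204 CPM against 267, 270.6 and 274 CPM. It rose by a log2 fold change of 0.28 (standard error 0.06, edgeR adjusted p = 5.07e-03). *Ldha*, the subunit that favours lactate production and a classical target of HIF and Myc, was counted at 200.2, 210.4 and 213 CPM against 197, 189.6 and 179 CPM. All cKO values lay below all Ctrl values, while the log2 fold change of −0.14 missed the threshold (95% interval −0.24 to −0.04 before adjustment, edgeR adjusted p = 0.0662). Per length, *Ldha* held 30.8 ± 2.01% of the *Ldha* and *Ldhb* transcripts in the Ctrl libraries and 24.8 ± 1.12% in cKO (SD, n = 3).

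Lactate and pyruvate cross membranes through monocarboxylate transporters. *Slc16a1* (ENSMUSG00000032902, chromosome 3 from 104638668 to 104658462, plus strand), encoding MCT1, was counted at 60.9, 58.0 and 64.2 CPM against 80.2, 83.9 and 75.0 CPM. The groups stood well apart, and *Slc16a1* rose 1.31-fold (log2 fold change 0.38, standard error 0.06, edgeR adjusted p = 2.07e-03). MCT1 is abundant in brain endothelium, whose 6 markers summed to 347 to 387 CPM in the Ctrl libraries and 337 to 352 CPM in cKO, with 1 lower and 0 higher at an adjusted p under 0.05 in edgeR and DESeq2 and at an unadjusted p under 0.05. Markers of astroglia and of the oligodendrocyte lineage mostly rose, as given above. The part of any cell type in the rise of *Slc16a1* was not tested. *Slc16a7*, encoding the neuronal MCT2, was higher in every cKO library at a low level and did not pass (log2 fold change 0.29, edgeR adjusted p = 0.152). It passed only with the Y-chromosome level as a covariate (edgeR adjusted p = 0.0381). *Slc16a3*, encoding MCT4, was at 1.95 to 2.93 CPM in all libraries. The mitochondrial pyruvate carrier genes *Mpc1* and *Mpc2* did not pass the test, with log2 fold changes of 0.01 and 0.08. Mpc1-ps, a copy of *Mpc1*, had 3127 counts, more than the 1802 of *Mpc1* itself, so the level of *Mpc1* is uncertain.

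At pyruvate dehydrogenase, the entry to the tricarboxylic acid cycle, 1 of 2 enzyme genes and 2 of 4 kinase genes rose. Over all tested genes 12.2% rose, and nothing is read from counts in groups this small. *Pdha1*, its X-linked catalytic subunit, was counted at 138, 133 and 129 CPM against 144, 148 and 161 CPM and rose by a log2 fold change of 0.18 (edgeR adjusted p = 0.0393), a call that was lost in 7 of 17 other fits, among them those without Ctrl2, Ctrl3 or cKO3 (0.0911, 0.119 and 0.164). *Pdhb*, its partner subunit, did not pass, with a log2 fold change of 0.14 (edgeR adjusted p = 0.114). *Pdk4* (ENSMUSG00000019577, chromosome 6 from 5483351 to 5496309, minus strand), the kinase raised by fasting and fatty acid use, was counted at 5.40, 4.30 and 4.82 CPM in the Ctrl libraries and at 10.3, 7.82 and 8.28 CPM in cKO. It showed the largest fitted log2 fold change of the 36 genes, 0.87 (standard error 0.16, edgeR adjusted p = 4.04e-03), from 66 to 83 counts per Ctrl library. *Pdk4* missed the stricter threshold, but not 0.05, without Ctrl2, Ctrl3, cKO1 or cKO3 (edgeR adjusted p of 0.0190, 0.0170, 0.0197 and 0.0115). *Pdk1*, a known HIF target, was counted at 38.9, 39.4 and 36.8 CPM against 45.7, 44.7 and 47.0 CPM and rose by a log2 fold change of 0.26 (edgeR adjusted p = 0.0216), a call lost without Ctrl3, cKO1 or cKO3 (0.0727, 0.0634 and 0.0786). The call of *Pdk1* was also lost in limma on log2(FPKM + 1) without a filter. *Pdk2* and *Pdk3* had lower means in the cKO libraries but overlapped, with log2 fold changes of −0.11 and −0.22. Per length, *Pdk4* made up 4.78 ± 0.588% of the 4 kinases in the Ctrl libraries and 8.74 ± 1.51% in cKO (SD, n = 3).

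The isoform contrasts were then compared as log2 count ratios within each library. Of 10 pairs, 6 did not overlap between the groups. Single genes without overlap made up 20.4% (higher) and 20.1% (lower) of all tested genes, and no such share was computed for ratios of other genes, so nothing is read from the count of pairs. In 4 of them the first named was lower relative to its partner in cKO, with log2 ratio differences of −0.44 for *Hk2*/*Hk1*, −0.54 for *Eno1*/*Eno2*, −0.43 for *Ldha*/*Ldhb* and −0.34 for *Aldoa*/*Aldoc*. *Hk2*, *Eno1* and *Ldha* were labelled as forms linked to progenitors and growth when the pairs were chosen, with earlier results of these data known. Their partners *Hk1*, *Eno2* and *Ldhb* each passed the test upward, while the labelled forms did not pass it. The other pairs got no such label, and *Pdk1*, a known HIF target like *Ldha*, rose. In *Aldoa*/*Aldoc* both genes rose. The ratios *Pfkp*/*Pfkm* and *Pdk1*/*Pdk2* were higher, by 0.23 and 0.37. For each of these 6 the two-sided exact permutation p was 0.1, the smallest that 3 against 3 libraries can give, and 0.167 after Benjamini-Hochberg adjustment over 10 pairs, so this design cannot reach 0.05. *Pfkl*/*Pfkm*, *Slc16a1*/*Slc16a7*, *Pdk3*/*Pdk2* and *Pfkfb3*/*Pfkfb2* overlapped, with differences of 0.12, 0.09, −0.10 and 0.20.

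**Figure D4:**
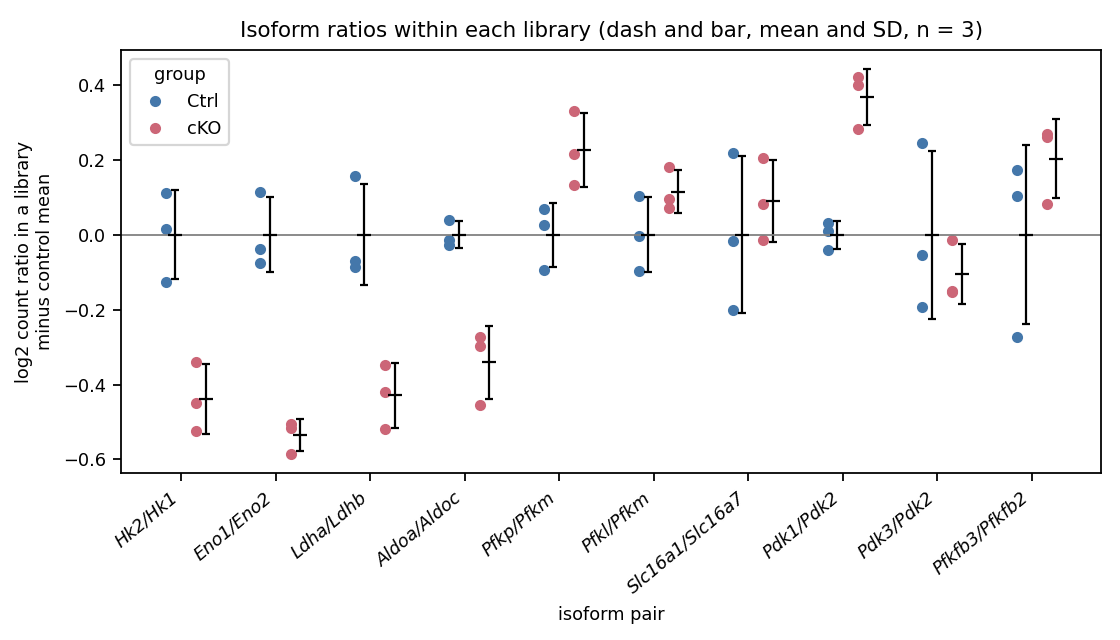
Log2 count ratio of each isoform pair in each library, minus the control mean; circles are libraries, dashes and bars the mean and SD (n = 3). The *Hk2*/*Hk1*, *Eno1*/*Eno2*, *Ldha*/*Ldhb* and *Aldoa*/*Aldoc* ratios lie below the Ctrl libraries in all 3 cKO libraries, and *Pfkp*/*Pfkm* and *Pdk1*/*Pdk2* above them.

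Levels between genes were compared per length, as FPKM (fragments scaled to gene length and library total) in the Ctrl libraries. *Ldhb* was highest at 140.3 ± 10.4 FPKM, followed by *Pkm* at 127 ± 0.657, *Aldoa* at 110.3 ± 1.17, *Pgam1* at 99.3 ± 5.82 and *Eno1* at 89.1 ± 0.482 FPKM (SD, n = 3), with no overlap between neighbours in this order. *Pgk1* at 76.3 and *Tpi1* at 67.8 FPKM followed and overlapped with each other. Below them *Ldha* stood at 62.2 and *Pfkp* at 52.2 FPKM. *Hk1* was at 19.5 FPKM and *Hk2* at 1.61 FPKM, the latter overlapping with *Pdk4* at 1.37 FPKM. The lowest were *Slc16a7*, *Pfkfb1* and *Slc16a3*, at 0.817, 0.656 and 0.418 FPKM. *Tigar*, the gene that fell, was at 5.56 FPKM.

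Neighbouring pathways were read from the same fit, against the background of 12.2% higher and 12.9% lower given above. Of 20 other glycolysis and gluconeogenesis genes tested, 2 rose and 1 fell at an adjusted p under 0.05. *Pcx*, the pyruvate carboxylase of astroglia, rose from 162 ± 11.1 to 297 ± 3.65 CPM (SD, n = 3, edgeR adjusted p = 8.40e-06), the other gene to rise was *Slc2a1*, and the insulin-responsive transporter *Slc2a4* fell by 0.66 on the log2 scale (edgeR adjusted p = 2.06e-03). Of 6 other pyruvate dehydrogenase complex genes 0 passed in edgeR, 0 in DESeq2 and 1 at an unadjusted p under 0.05. In the pentose phosphate pathway, which makes ribose and NADPH for growth, 0 of 9 rose in edgeR, in DESeq2 or at an unadjusted p under 0.05 and 2 fell, *Tkt* and *Rpia*, with log2 fold changes of −0.24 and −0.43. In the tricarboxylic acid cycle 2 of 17 rose and 1 fell, and among 9 genes of the NADH shuttles 2 rose, with *Got1* at 0.42. Of these last 4 lists 0 genes passed the stricter threshold in edgeR or DESeq2, or lay beyond its fold at an unadjusted p under 0.05.

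Genes that share regulators with glycolysis were read beside the same background of 12.2% higher and 12.9% lower. Of 17 tested hypoxia-responsive genes outside glycolysis, 4 rose and 2 fell. *Egln3*, *P4ha2* and *Ndrg1* passed the stricter threshold upward, as did 3.03% of all tested genes, with log2 fold changes of 0.53, 0.51 and 0.51. Of 11 HIF and Myc regulators, 2 rose and 3 fell. Nothing is read from the counts of these short lists. *Mycn*, the Myc gene of GNPs, was counted at 147, 144 and 134 CPM against 94.4, 89.6 and 91.8 CPM and fell by 0.62 on the log2 scale (edgeR adjusted p = 4.92e-05). *Hif3a*, a HIF subunit that can act as a brake on the others, rose by a log2 fold change of 0.81 (edgeR adjusted p = 2.65e-03). *Hif1a* and *Myc* did not pass, at −0.12 and 0.14 on the log2 scale.

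**Figure D5:**
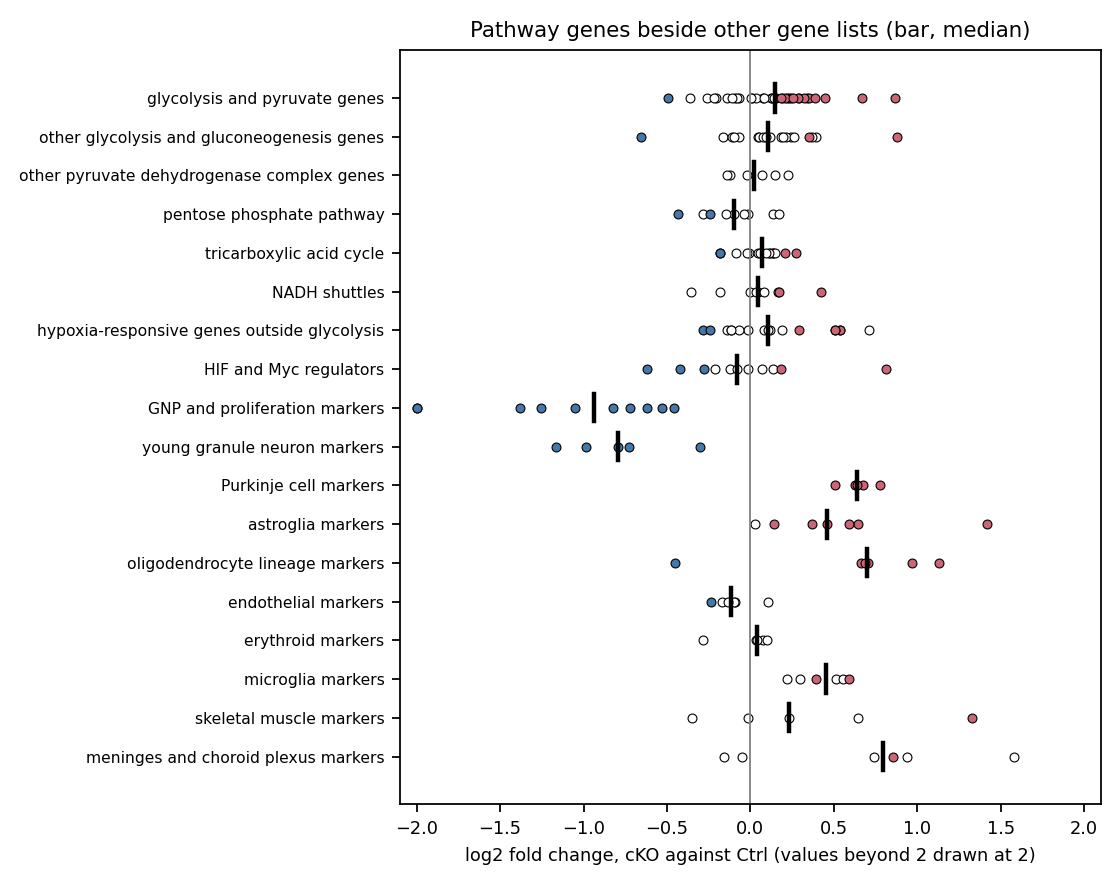
Log2 fold change of each tested gene in the glycolysis and pyruvate set, in neighbouring pathways and in cell type marker lists; red rose and blue fell at an adjusted p under 0.05, and black bars are medians. The pathway median is 0.15, against −0.94 for GNP and proliferation, 0.64 for Purkinje cell and 0.46 for astroglia markers, and *Atoh1* and *Barhl1* are drawn at −2.

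Markers of cells that are scarcer in the cerebellum or lie around it were also read. Of 6 microglia markers 2 rose, and of 5 tested skeletal muscle markers 1 rose (*Myh8*, while *Ckm* and *Myog* were too low to test). Of 6 meninges and choroid plexus markers 1 rose (*Col1a1*). Over all tested genes 12.2% rose, so nothing is read from these counts. Of 5 tested erythroid markers 0 passed in edgeR, in DESeq2 or at an unadjusted p under 0.05. *Ttr*, the main choroid plexus transcript, was uneven among the cKO libraries, at 181, 6.06 and 711 CPM, beside 67.7 to 131 CPM in Ctrl. Without cKO3, the library with most *Ttr*, 10 of the 36 genes rose at an adjusted p under 0.05. With any other single library left out 11 to 14 rose, among them 11 without cKO1 and 11 without Ctrl2. The part of these cells in the values of the 36 genes was not tested. The X-linked *Pgk1*, *Pdha1*, *Pdk3* and *Pfkfb1* stayed on the same side of the threshold with the Y-chromosome level as a covariate.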

How the data were processed

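Bulk mRNA of P1 mouse cerebella in 6 libraries was analysed, grouped by the sample labels alone. Reads had been aligned to mm10 with HISAT2 2.0.5 and counted per gene with featureCounts 1.5.0-p3, per the study's methods. The authors deposited raw counts per gene and FPKM values, the latter scaled by the authors to gene length. Annotation release, strand setting and treatment of multi-mapping reads are not given in the sources used here, so overlapping genes and near copies may share reads. Columns holding the authors' own comparison were not used, and 0 columns of sample values were left unmapped.

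Fold changes came from the quasi-likelihood test of edgeR 4.0.16 in R 4.3.3, after filterByExpr and TMM, with Benjamini-Hochberg adjustment over the 17505 genes kept, which held 99.8% of the counts. Totals ran from 15391854 to 17178478 counts per library, with a common dispersion of 0.0105. CPM values are counts after TMM scaling to equal library totals. The 95% intervals are normal approximations from the standard error, and they are narrower than the quasi-likelihood test would give. The labels do not say whether samples of a group came from separate animals, so p-values measure the spread between these samples. No library was a copy of another of its group (chi-square of 3.64 to 10.1 a gene). Isoform ratios were log2 count ratios per library, compared by two-sided exact permutation.

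Named genes were every gene of the set past either threshold, both genes of every isoform pair, genes that share reads or complete a step, and at most 3 called genes of a companion list. *Hif1a*, *Myc*, *Got1*, *Tkt*, *Rpia*, *Slc2a1*, *Barhl1*, *Ckm*, *Myog* and *Ttr* were named after their values were seen. The set, the lists and the tests were chosen with earlier results of these data known, so no list was tested as a set and nothing here is independent support for a list's direction. Alternatives were DESeq2 1.42.0, other scalings and filters, a replicate block, a Y-level covariate, limma 3.58.1 on log2(FPKM + 1) and log2(FPKM + 0.1), and each library left out. The main edgeR fit, DESeq2 and limma with both pseudocounts were also run on simulated counts, and the other fits were not. Promoters are RefSeq sequences on GRCm38.p6.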

Additional observations from a re-analysis of the deposited data

How the results depend on the processing

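Across 17 other fits the fold changes of the 36 genes gave 564 results with the same direction and the same side of an adjusted p of 0.05. Another 25 lost the call, 5 gained it and 16 changed sign. Of the isoform ratio differences 98 kept their direction and 2 changed sign. *Pdk4* left the stricter threshold, so that 1 gene was called higher, in limma on FPKM with every pseudocount and filter run and without both libraries numbered 2, the last chosen after seeing the data. With single libraries left out 1 to 2 genes were called higher and 0 to 1 lower, and with the Y-chromosome level as a covariate 1 was called lower, *Tigar*. The cause was not tested. The number higher at an adjusted p under 0.05 lay between 10 and 16, and 1 was lower in every fit. The median log2 fold change lay between 0.1157 and 0.1703 with single libraries left out, and the median of all genes between −0.03 and 0.01 over all fits.

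*Gapdh* and genes near 0 changed sign. With the Y-chromosome level as a covariate *Gapdh* was at 0.2974. Without both libraries numbered 2, the log2 fold change was −0.1135 for *Pfkfb2*, 0.2316 for *Gapdh*, 0.064 for *Eno3* and −0.0077 for *Mpc2*. With single libraries left out it ran from −0.0744 to 0.0925 for *Pfkfb2*, from −0.0072 to 0.0718 for *Tpi1*, from −1.8857 to 1.7535 for *Gapdh*, from −0.142 to 0.0582 for *Eno3* and from −0.0502 to 0.0776 for *Mpc1*. The ratio difference of *Slc16a1*/*Slc16a7* ran from −0.0099 to 0.2 and that of *Pdk3*/*Pdk2* from −0.2007 to 0.0182.

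With the replicate number as a block, 15 genes were higher at an adjusted p under 0.05, and *Pgam1* was the gene that gained the call. The deviations of same-numbered libraries correlated at 0.24, 0.26 and −0.16, and Ctrl1 and Ctrl3 correlated best with cKO libraries of another number. Each Ctrl library correlated positively with cKO libraries of a like Y-chromosome level and negatively with the others. The check follows that level, so it cannot decide whether the numbers pair the samples. Apart from *Gapdh*, the standard errors were largest for *Slc16a3*, *Pfkfb1* and *Pdk4*, at 0.26, 0.26 and 0.16 on the log2 scale.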

Other observations

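*Gapdh* was the gene that most separated the libraries numbered 2 from the other libraries among all 17505 tested genes. On the scale of log2(CPM + 1), on which the added 1 makes gaps smaller than those of the CPM themselves, the lower of these libraries stood 2.53 above the highest of the others. The next gene in this order, Rpl17-ps10, was separated by 0.57 in the lower direction, and Gm13622 by 0.51 in the higher direction. Of the other genes of the set, only *Pfkfb1* was separated at all, by 0.03. This was noticed in the data and was not tested.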
